A study of Mus musculus with 6 samples.

Results

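Glycolysis breaks glucose down to pyruvate, and the 38 genes described here code for its enzymes and for those of the routes that leave it: lactate formation, entry of pyruvate into the mitochondrion, the pentose phosphate pathway and the glycogen store. They were taken by gene symbol from the annotation of the array, 1 probe set per gene, the one with the highest mean signal. Of the 38 genes 34 were measured, among 19937 genes in all. Gpi1, Eno1 and G6pdx had no probe set under their symbol, and Gapdh had only 11 probe sets that the annotation shares with other genes, so these 4 genes are given no value.

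Mouse embryonic stem cells rely strongly on glycolysis and turn much of their glucose into lactate even in oxygen. Lactate dehydrogenase, a tetramer of A and B subunits, interconverts pyruvate and lactate. The pyruvate dehydrogenase complex instead feeds pyruvate to the tricarboxylic acid (TCA) cycle and is switched off by its kinases, the PDKs. The pentose phosphate pathway yields NADPH and ribose phosphate, and phosphoglucomutase links glucose phosphate to glycogen.

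RNA was read on 6 Affymetrix Mouse Gene 1.0 ST arrays, 3 of cells with a control vector and 3 of cells with a vector that codes for FLAG-tagged mouse CTCFL, the germ cell paralog of the insulator protein CTCF. All were male ES cells of 129P2/OlaHsd background, cloned from the line 46C, which carries a Sox1-GFP knock-in. Both groups were grown with 10% serum and were held under 1 µg/ml puromycin, and the labels give neither the promoter of the vectors nor the number of clones behind each group. The design text calls the 3 samples of a group biological replicates, and p-values measure the spread between these samples only.

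The Ctcfl gene itself read 7.70, 7.85 and 7.89 (log2 signal) with the control vector and 11.33, 11.22 and 11.24 with FLAG-CTCFL, as labelled. Array medians lay between 7.92 and 7.99, and FLAG-CTCFL replicate 2 had the narrowest spread of signals (SD 1.41, against 1.44 to 1.47 in the other arrays). The number of arrays limits the precision. The mean signal of all 34 genes lay above 7.63, taken as the limit of dim signal because 95% of 1190 genes of olfactory or vomeronasal receptors lie under it. Of 10 ES cell markers none was dim by its mean over the arrays, 6 fell and 1 rose, and their summed linear signal was 65826 to 66293 in the control arrays and 51265 to 55567 in the FLAG-CTCFL arrays. Of the markers of other cell types, Dcn, Lum and Postn (3 of 10 fibroblast markers), Afp, Cubn and Sox17 (3 of 8 endoderm), Meox1 and Mesp1 (2 of 5 mesoderm), Dcx (1 of 6 neural) and Elf5 and Plac1 (2 of 7 trophoblast) were dim. The summed signal of the endoderm markers was 1816 to 1866 in the control arrays and 1933 to 2042 in the FLAG-CTCFL arrays, that of the mesoderm markers 1110 to 1131 and 1138 to 1228, and that of the neural markers 1923 to 2040 and 1841 to 1913. The fibroblast sums (2479 to 2559 and 2450 to 2633) and trophoblast sums (1988 to 2015 and 1982 to 2145) overlapped between the groups, while single markers moved in opposite directions. Of the 7 trophoblast markers 3 rose (Eomes by 0.61, Gata3 by 0.33 and Cdx2 by 0.30) and Tfap2c changed by -0.73. Of the 8 endoderm markers Pdgfra (0.54), Dab2 (0.19) and Gata6 (0.14) rose and none fell. Mixl1 was the 1 mesoderm marker that rose (0.31), and 1 marker each rose and fell among the neural (Pax6 at 0.32, Map2 at -0.44) and fibroblast lists (Col1a1 at 0.16, Thy1 at -0.48). Some of these rises began near the dim limit of 7.63. The control mean of Cdx2 was 7.56, under that limit, and those of Pdgfra (7.64), Mixl1 (7.67) and Pax6 (7.74) lay just above it. The sums of the lists of other cell types include such signals near background. For comparison, 18.4% of all genes fell and 12.5% rose by the test described below. Among genes above the dim limit 25.1% fell and 16.4% rose, so a single marker called in a list is near these shares. The part of these markers in the results below was not tested. In bulk RNA, fewer cells of a kind and less RNA per cell cannot be told apart.

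More of the enzyme genes were lower than higher in FLAG-CTCFL cells. Of the 34 genes, 17 fell, 3 rose and 14 did not pass the test (limma, adjusted p under 0.05 over all 19937 genes), where 30.9% of all genes tested changed in either direction. The share that fell was 50%, where 18.4% of all genes tested fell, and the share that rose was 8.82%, where 12.5% of all genes rose. Among the 14207 genes above the dim limit 25.1% fell and 16.4% rose, and among the 3005 genes at least as bright as the median enzyme gene 29.2% fell and 16.1% rose. The median log2 fold change of the 34 genes, FLAG-CTCFL minus control vector, was -0.135, and that of all genes was 0.0037. After quantile normalization of the arrays, which turned the balance of all genes to 19.8% higher and 16.6% lower, 15 of the enzyme genes were lower and 4 higher, and their median was -0.08.

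Size set a few genes apart from the rest. At least 1.5-fold lower were 6 of the 34 genes (17.6%), against 2.77% of all genes tested, and at least 1.5-fold higher none, against 0.787%. These were Ldhb, Pdk3, Aldoc, Pgm1, Tpi1 and Pgm2, and Pgk1 followed at 1.49-fold. The other 10 genes that fell did so by 0.15 to 0.39 on the log2 scale. All FLAG-CTCFL arrays lay below all control arrays for 19 of the 34 genes (55.9%, against 23.0% of all genes) and above them for 4 (11.8%, against 18.3%), and the arrays of 41.3% of all genes did not overlap in either direction. The shares of all genes in this paragraph include dim genes and were not matched for signal, whereas the 34 genes all lay above the dim limit.

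**Figure D1:**
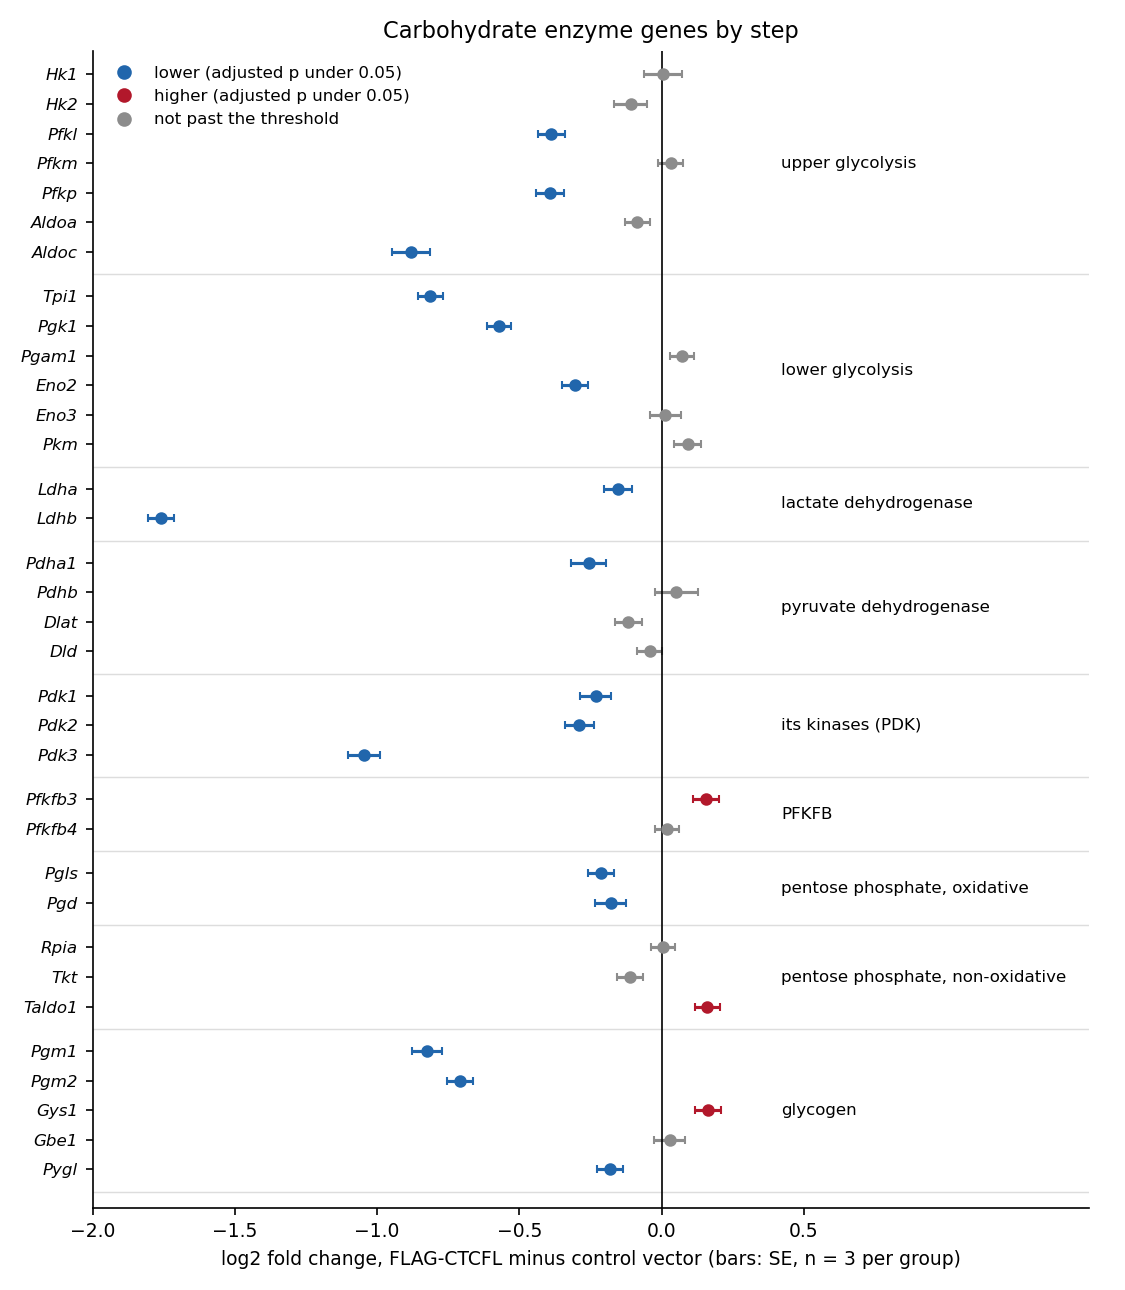
Log2 fold change (x axis, FLAG-CTCFL minus control vector) of the 34 measured enzyme genes, grouped by step from hexokinase to glycogen; points are limma estimates, bars are standard errors with 3 arrays per group, and colour gives the call at an adjusted p of 0.05. Ldhb lies farthest to the left at -1.76, all 3 PDK genes lie left of 0, and the 3 genes that rose lie between 0.15 and 0.16.

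Lactate dehydrogenase showed the largest change. Ldhb, which codes for the B or heart subunit, had a log2 signal of 11.37, 11.36 and 11.29 with the control vector and 9.57, 9.54 and 9.63 with FLAG-CTCFL. The groups were far apart, with no array of either group within 1 log2 unit of the other group, and only 11 of the 19937 genes fell more. The fall was 1.76 ± 0.05 on the log2 scale (SE, n = 3 per group; 3.39-fold lower; adjusted p = 3.08e-11). A second probe set of the gene went from 11.22 to 9.60 on the mean, a change of -1.62 (adjusted p = 1.48e-09 over all probe sets). Ldha, the gene of the A or muscle subunit, moved little: 13.28, 13.24 and 13.30 in the control arrays against 13.03, 13.16 and 13.17, a change of -0.15 ± 0.05 (adjusted p = 0.0288). The groups of Ldha did not overlap, but its call was lost under 7 of 15 alternative settings, with adjusted p up to 0.223. The change of Ldhb differed from that of Ldha by -1.61 ± 0.06 (SE), and the arrays did not overlap in the difference of the 2 signals (exact permutation test over arrays, two-sided p = 0.1, the smallest that 3 against 3 arrays allow; 0.15 after Benjamini-Hochberg adjustment over 12 isoenzyme pairs).

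**Figure D2:**
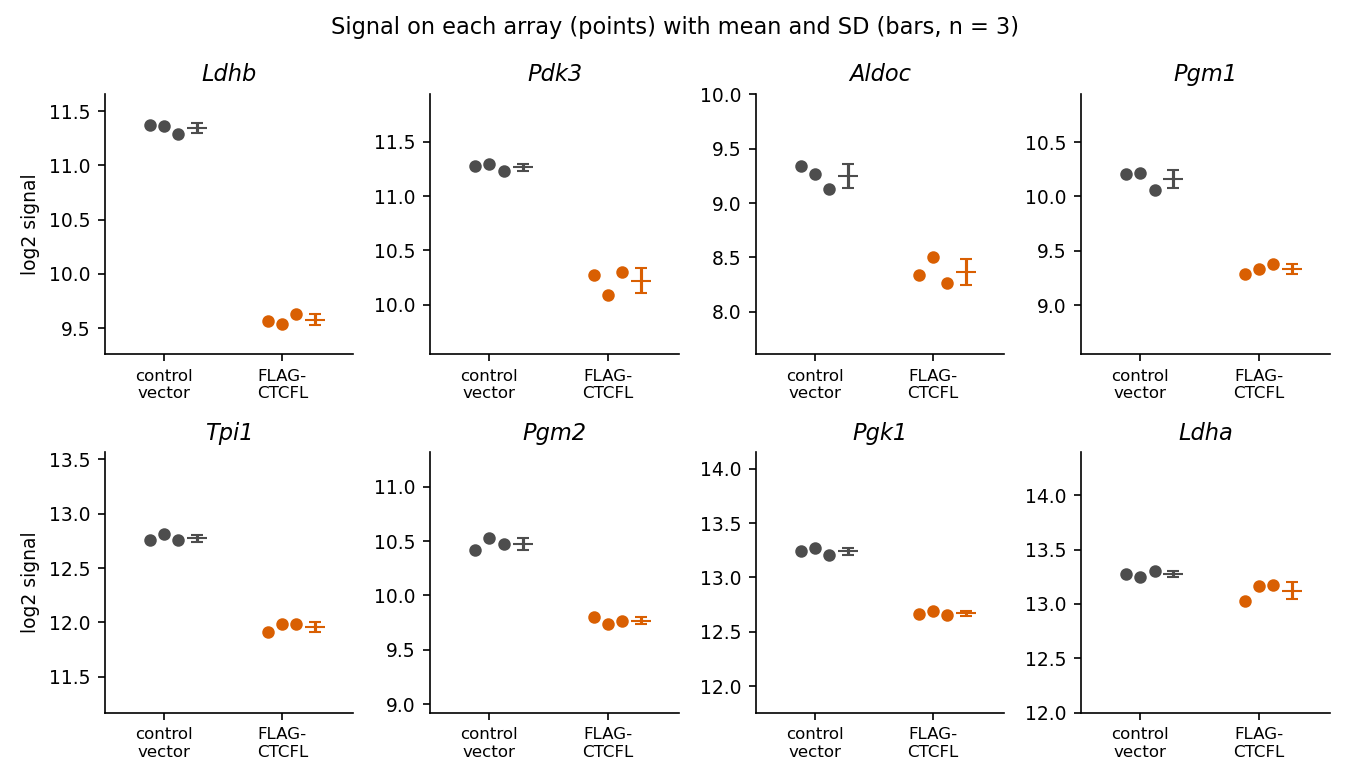
Log2 signal (y axis, the same span of log2 units in each panel) on each of the 3 control vector and 3 FLAG-CTCFL arrays, for the 7 genes that fell by 0.5 or more on the log2 scale and for Ldha; points are arrays, and the bars beside them are the mean and SD. In every panel the FLAG-CTCFL points lie below the control points, by the widest gap for Ldhb (11.34 to 9.58 on the mean) and the narrowest for Ldha (13.27 to 13.12).

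In upper glycolysis, where glucose is phosphorylated and split, 3 of 7 measured genes fell and none rose. Aldoc, the brain-type aldolase, had 9.34, 9.27 and 9.13 in control cells and 8.34, 8.50 and 8.26 in FLAG-CTCFL cells. Every FLAG-CTCFL array lay more than 0.5 below the lowest control array, and the fall was 0.88 ± 0.07 (SE; 1.84-fold lower; adjusted p = 3.07e-07). Aldoa, the ubiquitous aldolase, was 13.26 ± 0.01 in control cells and 13.17 ± 0.04 in FLAG-CTCFL cells (SD, n = 3), without passing (-0.09, adjusted p = 0.167), although its arrays did not overlap. The 2 changes differed by -0.80 ± 0.09 (exact permutation p = 0.1).

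Phosphofructokinase, the committed step of glycolysis, has a liver, a platelet and a muscle isoform. Pfkl, the liver form, was 10.86, 10.83 and 10.76 in the controls and 10.38, 10.44 and 10.47 with FLAG-CTCFL. Pfkp, the platelet form, was 11.47, 11.53 and 11.40 against 11.15, 11.04 and 11.03. Both were lower in every FLAG-CTCFL array, each by 0.39 ± 0.05 (adjusted p = 2.31e-05 for Pfkl and 4.44e-05 for Pfkp). Pfkm, the muscle form, differed by 0.03 ± 0.04 (adjusted p = 0.681), and its change differed from that of Pfkl by 0.42 ± 0.06 and from that of Pfkp by 0.42 ± 0.06 (exact permutation p = 0.1 for each).

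Hexokinase, which traps glucose as its phosphate, gave a reading that turned on the probe set. Hk2 changed by -0.11 ± 0.06 without passing (adjusted p = 0.199), with overlapping arrays. For Hk1 the brightest probe set read 13.12 ± 0.11 in control cells and 13.12 ± 0.13 in FLAG-CTCFL cells (SD, n = 3), a change of 0.01. That probe set is annotated through 1 sequence record only, and the same record stands on all 15 probe sets that the annotation gives to both Hk1 and the ribosomal protein gene Rpl17. Those 15 shared probe sets changed by -0.07 to 0.27, with a median of 0.03. The other Hk1 probe set, which carries RefSeq transcripts, had 9.43, 9.45 and 9.43 with the control vector and 9.08, 8.91 and 9.001 with FLAG-CTCFL. Read there, Hk1 was lower in every FLAG-CTCFL array, by 0.44 ± 0.05 (adjusted p = 2.8e-05 over all probe sets), and 18 of the 34 enzyme genes fell.

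In lower glycolysis, from triose phosphate to pyruvate, 3 of 6 measured genes fell and none rose. Tpi1, which interconverts the triose phosphates, was 12.76, 12.81 and 12.76 in control cells and 11.91, 11.99 and 11.99 in FLAG-CTCFL cells, a fall of 0.81 ± 0.04 (1.76-fold; adjusted p = 1.7e-08). Pgk1, the phosphoglycerate kinase of somatic cells, was 13.24, 13.27 and 13.21 against 12.67, 12.69 and 12.65, a fall of 0.57 ± 0.04 (adjusted p = 2.68e-07). In both genes the arrays of a group lay close together against the gap between the groups. Eno2, the neuronal enolase, fell by 0.30 ± 0.05 (adjusted p = 0.000172), while Eno3, the muscle enolase, differed by 0.01 ± 0.06 (adjusted p = 0.912). The difference between these 2 changes was 0.32 ± 0.08 (exact permutation p = 0.1).

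The mutase before enolase and the pyruvate kinase after it did not pass. Phosphoglycerate mutase Pgam1 was 12.83 ± 0.03 in control cells and 12.90 ± 0.04 in FLAG-CTCFL cells (SD, n = 3; adjusted p = 0.271). Pyruvate kinase Pkm was 12.53 ± 0.07 and 12.62 ± 0.03 (adjusted p = 0.181), with all FLAG-CTCFL arrays above the control arrays, and its call turned to higher after quantile normalization (0.14, adjusted p = 0.0431). A second Pkm probe set changed by 0.02 (adjusted p = 0.774 over all probe sets).

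The 3 PDK genes of the set, whose products switch pyruvate dehydrogenase off, all fell. Pdk3 was 11.27, 11.30 and 11.23 in the controls and 10.27, 10.09 and 10.30 with FLAG-CTCFL, a fall of 1.05 ± 0.06 (2.06-fold; adjusted p = 1.55e-08). Pdk2 fell by 0.29 ± 0.05 (adjusted p = 0.000515) and Pdk1, a target of hypoxia-inducible factor, by 0.23 ± 0.05 (adjusted p = 0.00486). All 3 were below the control range in every FLAG-CTCFL array. The change of Pdk3 differed from that of Pdk1 by -0.81 ± 0.06 and from that of Pdk2 by -0.76 ± 0.07 (exact permutation p = 0.1 for each). Of the complex itself 1 of 4 genes fell. Pdha1, the X-linked alpha subunit of its first enzyme, fell by 0.26 ± 0.06 (adjusted p = 0.00616), and the beta subunit Pdhb (0.05, adjusted p = 0.698), the acetyltransferase Dlat (-0.12, adjusted p = 0.0855) and the dehydrogenase Dld (-0.04, adjusted p = 0.561) did not pass.

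Pfkfb3, whose product makes the strongest allosteric activator of phosphofructokinase, was 1 of the 3 genes that rose. Its signal was 8.24, 8.28 and 8.31 with the control vector and 8.36, 8.48 and 8.46 with FLAG-CTCFL, a rise of 0.15 ± 0.05 (1.11-fold; adjusted p = 0.0216). Its relative Pfkfb4 differed by 0.02 ± 0.04 (adjusted p = 0.804). The rises of Pfkfb3, Gys1 and Taldo1 were small, and leaving out an array removed at least 1 of these calls in 4 of 6 cases: Pfkfb3 and Taldo1 without control replicate 1 or FLAG-CTCFL replicate 3, Pfkfb3 without control replicate 2 and Gys1 without control replicate 3.

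The oxidative branch of the pentose phosphate pathway, which makes NADPH, and its non-oxidative branch, which recycles sugars to glycolysis, gave different counts. In the oxidative branch both measured genes fell, the lactonase Pgls by 0.21 ± 0.04 (adjusted p = 0.00241) and the phosphogluconate dehydrogenase Pgd by 0.18 ± 0.06 (adjusted p = 0.0250). The call of Pgd was lost under 7 of 15 alternative settings, among them quantile normalization (-0.10, adjusted p = 0.0827) and leaving out control replicate 2 or 3 or FLAG-CTCFL replicate 2 or 3 (adjusted p of 0.0648 to 0.108). In the non-oxidative branch the transaldolase Taldo1 was 9.84, 9.91 and 9.87 in control cells and 10.04, 9.99 and 10.07 in FLAG-CTCFL cells, a rise of 0.16 ± 0.04 (adjusted p = 0.0122). The transketolase Tkt (-0.11, adjusted p = 0.0883) and the isomerase Rpia (0.0036, adjusted p = 0.968) did not pass. The difference between the branches was not tested.

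Of the 5 genes listed under glycogen 3 fell and 1 rose. Pgm1 and Pgm2 both bear the name phosphoglucomutase, and the reaction that each product carries out was not measured here. Each carries the symbol of the other as an older name in the GRCm38.p6 gene table, whose names are used here (Pgm1 on chromosome 4, Pgm2 on chromosome 5). Pgm1 was 10.20, 10.22 and 10.06 in the controls and 9.29, 9.33 and 9.38 with FLAG-CTCFL, a fall of 0.82 ± 0.05 (1.77-fold; adjusted p = 5.99e-08). Pgm2 was 10.42, 10.53 and 10.48 against 9.80, 9.73 and 9.76, a fall of 0.71 ± 0.05 (1.63-fold; adjusted p = 7.81e-08). Neither gene had an array near the other group, and the 2 changes differed by 0.12 ± 0.07, with overlapping arrays (exact permutation p = 0.3). Gys1, the glycogen synthase outside the liver, was 9.52, 9.53 and 9.50 against 9.74, 9.70 and 9.61, a rise of 0.16 ± 0.05 (adjusted p = 0.0140). The branching enzyme Gbe1 differed by 0.03 ± 0.05 (adjusted p = 0.782), and the liver phosphorylase Pygl, which breaks glycogen down, fell by 0.18 ± 0.05 (adjusted p = 0.00848). Pygl lay near the dim limit of 7.63, at 7.88, 7.83 and 7.91 in the controls and 7.73, 7.73 and 7.62 with FLAG-CTCFL. The Pygl call was lost without a variance shared between genes (adjusted p = 0.0574) and without FLAG-CTCFL replicate 3 (adjusted p = 0.0535).

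The genes lie on many chromosomes, and the genes next to them moved to different degrees. For each of the 7 genes that fell by 0.5 or more, up to 10 genes on either side in the GRCm38.p6 gene order with signal above the dim limit were read. Around Ldhb on chromosome 6 the median log2 fold change of the 20 neighbours was -0.03, with 6 lower and 2 higher, and no neighbour fell as far, the lowest being St8sia1 at -0.49. Around Aldoc on chromosome 11 (median -0.04) and Pgm1 on chromosome 4 (median -0.03) the neighbours also centred near 0, with 3 and 6 of 20 lower. No neighbour of Aldoc fell as far as Aldoc, and 1 neighbour of Pgm1, Dnajc6 at -1.02, fell further than Pgm1. Around Pgm2 on chromosome 5 the median was -0.14, with 10 of 20 lower, and with dim genes counted too it was -0.02, with 8 lower.

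Pgk1, Pdk3, Tpi1 and Eno2 lay among neighbours that fell. Around Pgk1 on chromosome X 16 of 20 neighbours fell, with a median of -0.63 against -0.57 for Pgk1 itself, and 13 of them, among them Atp7a at -0.72 and Magt1 at -0.79, fell at least as far. Around Pdk3 on chromosome X 17 of 20 fell, with a median of -0.66 against -1.05 for Pdk3, and 4 of them, among them the adjacent Pcyt1b (-1.49) and Pola1 (-1.14), fell at least as far. Tpi1 and Eno2 are close together on chromosome 6 and share most of their neighbours. Of the 20 genes around each, 16 fell with a median of -0.26, and none around Tpi1 fell as far as its -0.81. With dim genes counted too, these medians were -0.04 around Pgk1 and -0.14 around Pdk3, Tpi1 and Eno2. Falls were unevenly spread over the chromosomes: of the genes above the dim limit 35.1% fell on chromosome 6, 52.4% on chromosome 14 and 49.1% on chromosome X, against 22.7% on all others. The part of a gene's place in its own fall was not tested. Of the 10 enzyme genes on these 3 chromosomes 6 fell, among them Ldhb, Tpi1, Pgk1 and Pdk3. Of the 24 measured enzyme genes outside chromosomes 6, 14 and X, 11 fell and 3 rose, with a median of -0.10.

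**Figure D3:**
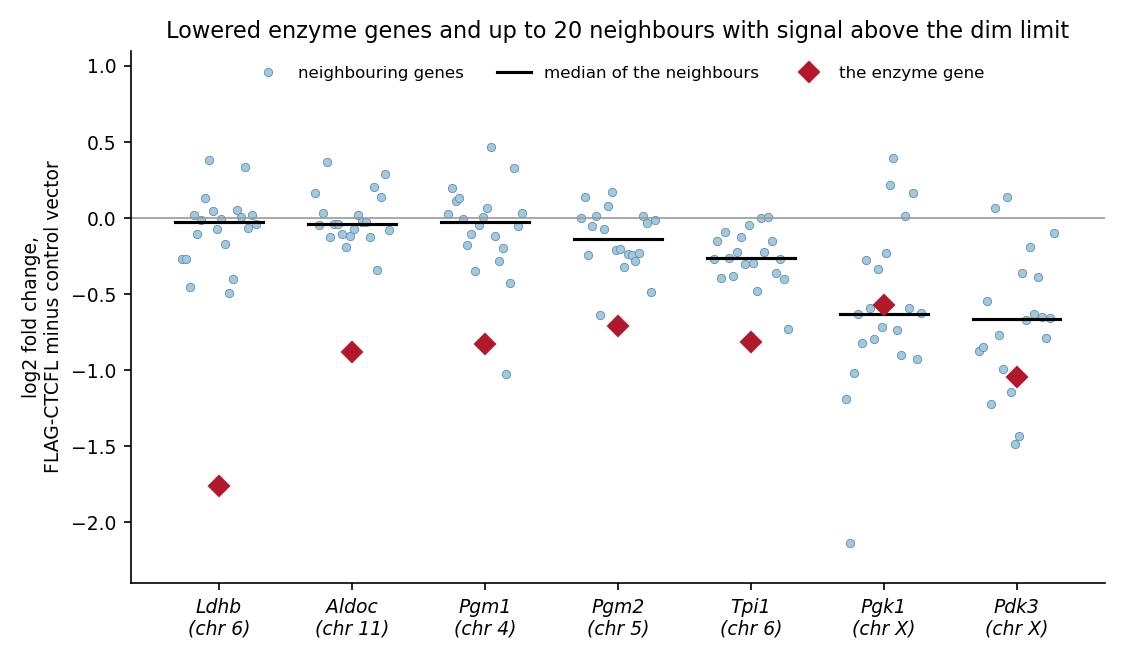
Log2 fold change (y axis, FLAG-CTCFL minus control vector) of the 7 enzyme genes that fell by 0.5 or more (diamonds) and of the 20 nearest genes with signal above the dim limit on the same chromosome (circles, in gene order from left to right); black lines are medians of the neighbours. The diamonds of Ldhb, Aldoc and Pgm1 lie far below neighbour medians of -0.03 to -0.04, while that of Pgk1 (-0.57) lies at the level of its neighbours (-0.63).

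The promoters of the 2 genes that fell most and of the 2 that rose most are shown because these 4 mark the ends of the range. Each runs from 250 bases before to 50 bases after the gene's start, from RefSeq on GRCm38.p6, 5′ to 3′ on the gene's strand. Capitals mark matches on either strand to ACGTG, to GGGCGG, the GC box, or to AGGGGGC, a part of the CTCF core motif. The first of these strings occurs in some E-boxes and hypoxia response elements only, and other forms of these elements were not searched.
Ldhb (fell by 1.76; chr6:142507908-142508207, minus strand): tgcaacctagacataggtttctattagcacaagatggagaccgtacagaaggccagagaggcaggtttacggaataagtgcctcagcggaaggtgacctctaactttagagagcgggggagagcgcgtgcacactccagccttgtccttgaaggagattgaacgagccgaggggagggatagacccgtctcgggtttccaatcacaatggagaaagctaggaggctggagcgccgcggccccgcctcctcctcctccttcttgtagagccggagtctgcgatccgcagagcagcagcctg
Pdk3 (fell by 1.05; chrX:93832101-93832400, minus strand): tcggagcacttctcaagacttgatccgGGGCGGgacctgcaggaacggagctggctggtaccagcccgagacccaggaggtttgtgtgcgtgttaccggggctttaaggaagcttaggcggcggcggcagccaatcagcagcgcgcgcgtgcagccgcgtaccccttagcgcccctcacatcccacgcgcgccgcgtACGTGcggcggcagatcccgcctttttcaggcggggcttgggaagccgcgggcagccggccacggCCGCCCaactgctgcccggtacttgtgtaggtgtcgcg
Gys1 (rose by 0.16; chr7:45434589-45434888, plus strand): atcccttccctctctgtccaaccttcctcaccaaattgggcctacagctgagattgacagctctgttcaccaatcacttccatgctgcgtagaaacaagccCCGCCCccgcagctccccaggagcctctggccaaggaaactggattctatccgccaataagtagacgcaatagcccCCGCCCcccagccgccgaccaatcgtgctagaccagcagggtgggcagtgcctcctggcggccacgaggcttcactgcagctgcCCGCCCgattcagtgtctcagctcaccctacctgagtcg
Taldo1 (rose by 0.16; chr7:141391910-141392209, plus strand): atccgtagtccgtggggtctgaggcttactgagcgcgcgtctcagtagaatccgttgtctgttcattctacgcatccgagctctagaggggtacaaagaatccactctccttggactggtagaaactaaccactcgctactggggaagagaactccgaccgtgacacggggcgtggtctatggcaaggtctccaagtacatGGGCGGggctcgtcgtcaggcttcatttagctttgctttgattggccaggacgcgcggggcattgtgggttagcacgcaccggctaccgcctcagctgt

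The Ldhb window held none of these letter strings, that of Pdk3 held 1 ACGTG and 2 GGGCGG, and those of Gys1 and Taldo1 held 3 and 1 GGGCGG. The string ACGTG was found in 8 of 22 promoters of the genes that fell (36.4%) and in 9 of 21 of those that did not pass (42.9%), and in 19.6% of all 32851 promoters in the table. GGGCGG was in 13 of the 22 (59.1%), in 11 of the 21 (52.4%) and in 35.7% of all promoters. AGGGGGC was in 3 of the 22 (13.6%), in 0 of the 21 and in 10.6% of all promoters. Of the 4 promoters of the 3 genes that rose, 2, 4 and 1 held these strings in the same order. Each string was counted on its own, on both strands. These matches describe the letters only, and binding at these promoters was not measured here.

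Other genes of carbohydrate metabolism, from a list of 79, lay on both sides of 0. Of 74 measured, 22 fell and 8 rose, with a median of -0.05. The share that fell, 29.7%, compares with 18.4% of all genes, and 10 of the 74 had a dim control mean. Of the other 64 genes 32.8% fell and 10.9% rose. Among all genes above the dim limit by their mean over the arrays, 25.1% fell and 16.4% rose. Pdk4, the fourth kinase of pyruvate dehydrogenase, went from 9.17 ± 0.02 to 8.46 ± 0.07 (SD, n = 3; change -0.71, adjusted p = 9.93e-08), so that all of Pdk1 to Pdk4 were lower. Slc25a13, the mitochondrial aspartate-glutamate carrier (-0.65, adjusted p = 9.33e-07), Pck2, the mitochondrial PEP carboxykinase (-0.58, adjusted p = 2.77e-06), and G6pc3, the ubiquitous glucose-6-phosphatase (-0.43, adjusted p = 3.99e-06), fell. Pdk4 and Slc25a13 lie on chromosome 6, Pck2 on chromosome 14 and G6pc3 on chromosome 11. Of the other kinases, Pdk3 lies on chromosome X, Pdk1 on chromosome 2 and Pdk2 on chromosome 11. Falls were more frequent on chromosomes 6, 14 and X, and the part of place in these falls was not tested. Pklr, the pyruvate kinase of liver and red cells, rose from 8.23 ± 0.03 to 8.85 ± 0.07 (0.63, adjusted p = 3.07e-07), and Pcx, the pyruvate carboxylase that refills the TCA cycle, from 9.49 ± 0.04 to 9.93 ± 0.02 (0.43, adjusted p = 4.41e-06).

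Of the glucose and monocarboxylate transporters 4 of 9 fell and 1 rose. The glucose transporter Slc2a3, on chromosome 6, fell by 0.36 ± 0.04 (adjusted p = 1.7e-05). Slc2a1, on chromosome 4, rose by 0.14 ± 0.04 (adjusted p = 0.0186). The lactate exporter Slc16a3 (-0.12, adjusted p = 0.0522) and its relative Slc16a1 (0.02, adjusted p = 0.865) did not pass, and the pyruvate carrier subunit Mpc1 fell by 0.25 ± 0.08 (adjusted p = 0.0350), with overlapping arrays.

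In the TCA cycle and its side enzymes, into which pyruvate flows, 9 of 22 measured genes fell and 3 rose, with a median of -0.08. Idh2, the NADPH-forming mitochondrial isocitrate dehydrogenase, went from 11.29 ± 0.07 to 10.33 ± 0.03 (SD, n = 3), a fall of 0.96 ± 0.05 (adjusted p = 8.53e-09). Both beta subunits of succinyl-CoA synthetase fell, Sucla2 by 0.53 (adjusted p = 4.98e-05) and Suclg2 by 0.49 (adjusted p = 2.68e-06), whereas its alpha subunit Suclg1 rose by 0.18 (adjusted p = 0.0167). The other genes that rose were the cytosolic isocitrate dehydrogenase Idh1 (0.25, adjusted p = 0.00144) and the succinate dehydrogenase subunit Sdhd (0.13, adjusted p = 0.0323). Lower were also Idh3g (-0.40, adjusted p = 1.3e-05), the malic enzyme Me1 (-0.36, adjusted p = 4.97e-05) and the cytosolic aconitase Aco1 (-0.31, adjusted p = 0.000199). Of these genes Suclg2 and Suclg1 lie on chromosome 6, Sucla2 on chromosome 14 and Idh3g on chromosome X. Idh2 lies on chromosome 7, Me1 on chromosome 9 and Aco1 on chromosome 4. Suclg2 and Me1 each had 2 probe sets, and only the brighter of each is given here. The share of the TCA list that fell was 40.9%, against 18.4% of all genes and 25.1% of the genes above the dim limit. Among the genes at least as bright as the median enzyme gene it was 29.2%. The share of the TCA list that rose was 13.6%, against 12.5%, 16.4% and 16.1% in the same order. Of the enzyme genes described here 50% fell, and the difference between the lists was not tested.

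**Figure D4:**
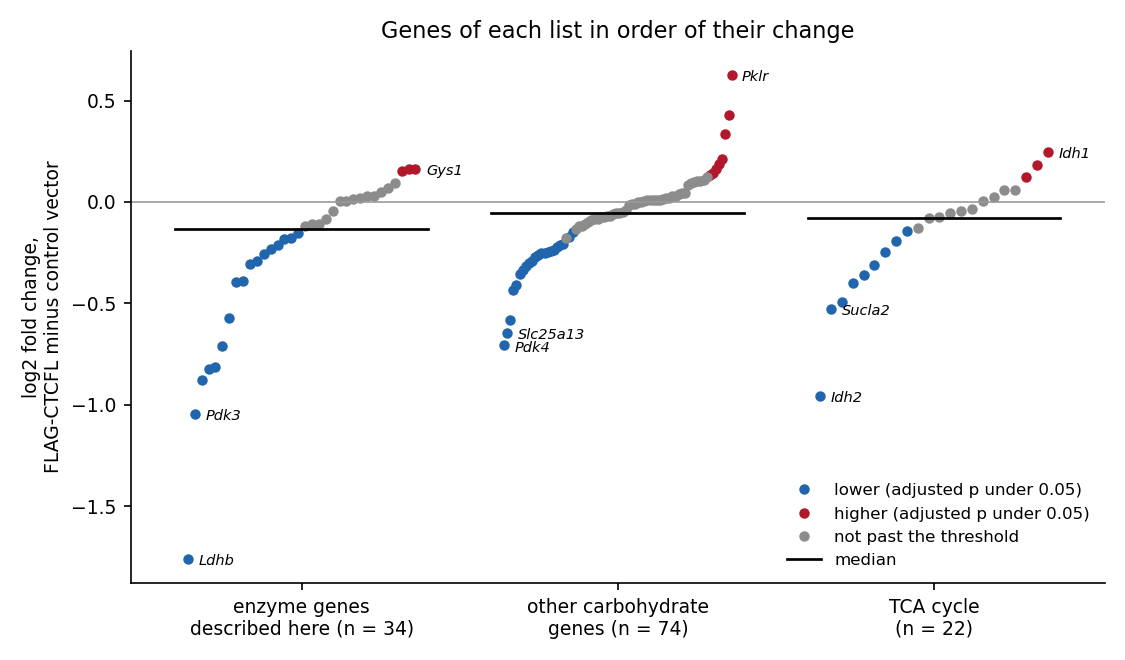
Log2 fold change (y axis, FLAG-CTCFL minus control vector) of every measured gene in 3 lists, in order of its change within the list: the 34 enzyme genes, 74 other carbohydrate genes and 22 genes of the TCA cycle; colour gives the call at an adjusted p of 0.05 and the line the median. The medians lie at -0.135, -0.05 and -0.08, and Ldhb at -1.76 is the lowest point of all 3 lists.

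The spread between arrays was small against the 7 falls of 0.5 or more, but not against the smallest changes. Pdhb, for one, changed by 0.05 with an SD of 0.09 in the control and 0.17 in the FLAG-CTCFL arrays. The median SD of the 34 enzyme genes was 0.05 in both the control and the FLAG-CTCFL arrays. The 17 genes that fell had a median difference from the control mean of -0.35, -0.37 and -0.35 in FLAG-CTCFL replicates 1, 2 and 3, as a description, since these genes were called on the same arrays. Without 1 FLAG-CTCFL array some of the smaller calls were lost: Ldha without replicate 1, Pgd without replicate 2, and Pgd and Pygl without replicate 3. Over all 34 genes the same medians were -0.07, -0.16 and -0.14, and over all genes -0.01, 0.01 and -0.0031.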

How the data were processed

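The deposited table holds 1 log2 signal per probe set and array for 34760 probe sets; that the values are log2 was read from their range, while what the authors used for background correction and normalization is not given in the sources used here. The labels name the array and biotin labelling, and the design text gives 200 ng of total RNA. The platform annotation gave 1 symbol to 21640 probe sets, several to 1321 and none to 11799. Current symbols came from the GRCm38.p6 gene table by Entrez ID (21553 matched), and the brightest probe set per gene was kept.

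All 19937 genes entered 1 limma fit (version 3.58.1, R 4.3.3) with a term for the group alone; lmFit and eBayes gave two-sided p-values, adjusted after Benjamini and Hochberg and called under 0.05. SEs of single genes are moderated; those of differences between isoenzymes come from the arrays. The code of the fit was run on simulated data with independent noise and far fewer changed genes than were called here. That run checks the code and not the calls. All 38 listed genes are accounted for; those called with a change of 0.5 or more are given array by array, and other lists by genes with such a change and up to 6 with the smallest p. Alternatives were another normalization, other filters, other limma variances and weights, averaged probe sets, the replicate number as a block, and each array left out. The genes and lists were chosen with earlier results of these data known. Slc2a1, Slc2a3, Slc16a1, Slc16a3, Mpc1, Suclg1, Sdhd and the named neighbours were picked after their values were seen. Figures used matplotlib 3.10.9.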

Additional observations from a re-analysis of the deposited data

How the results depend on the processing

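Across 15 alternative settings, 12 of the 20 calls among the enzyme genes kept their direction and their side of the threshold in every setting: Ldhb, Pdk3, Aldoc, Pgm1, Pgm2, Tpi1, Pgk1, Pfkl, Pfkp, Eno2, Pdk2 and Pgls. Ldha and Pgd were each lost in 7 settings. With 1 array left out, 15 to 18 enzyme genes were lower and 1 to 3 higher (1 without control replicate 1 or FLAG-CTCFL replicate 3), and of the other carbohydrate genes 18 to 24 were lower and 6 to 8 higher. Without a variance shared between genes 12 enzyme genes were lower and 1 higher, and 14 of the other carbohydrate genes were lower. With array weights 21 enzyme genes were lower and 3 higher, and 34 of the other carbohydrate genes were lower and 12 higher. That setting rests mainly on FLAG-CTCFL replicate 3, with a weight of 5.77 against 0.41 and 0.32 for replicates 1 and 2. Outside chromosomes 6, 14 and X 11 enzyme genes were lower, of 24 measured. Hk1 turned from 0.01 to -0.22 with the mean of its probe sets and to -0.44 from the probe set with RefSeq transcripts, an alternative chosen after seeing the data, as was the restriction of neighbours to genes above the dim limit. With the replicate number as a block 17 enzyme genes were lower and 3 higher, the same 20 calls; the numbers do not pair the samples, since same-numbered arrays correlated at 0.13, -0.20 and -0.02 in their deviations from the group means. The filter at the median signal left 31 enzyme genes, of which 16 were lower. The authors' normalization is unknown, and a change common to the whole transcriptome is outside what these values can show.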
